A study of Homo sapiens with 26 samples.

Results

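GPD2, DHODH, ETFDH and SQOR encode 4 flavoprotein dehydrogenases that hand electrons to ubiquinone at the mitochondrial inner membrane. These 4 genes, of 60663 in the RNA-seq files, were chosen by name as a functional family, and GPD2 also because its transcript enrichment rose strongly in AKAP1 null cells, so the comparison of AKAP1 null with wild-type cells is given below as a description with no test. Ribosomes translating each transcript were labelled with LOCL-TL in HEK293T cells, a human embryonic kidney line. In LOCL-TL, a biotin ligase opened by blue light (LOV-BirA) marks nearby ribosomes that carry the Avi tag on RPL29, and marked ribosomes are pulled down on streptavidin and compared with the total input of the same lysate. Ribosome footprints were sequenced from 3 kinds of cells, with LOV-BirA at the ER (fused to Sec61β), at the outer mitochondrial membrane (OMM, fused to the transmembrane domain of OMP25) or free in the cytosol, with 2 lysates for each location and 12 libraries in all. Whole transcripts pulled down with the OMM ligase were sequenced from wild-type (WT) cells carrying a negative control gRNA, AKAP1 null cells and LARP4 null cells, with 2 lysates each, and from cells without cycloheximide (CHX), with 1 lysate, 14 libraries in all.

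The cells of these groups shared the Avi-tagged ribosome and a stably integrated, constitutively expressed ligase, and CHX, which halts elongating ribosomes, was present unless stated. CHX in both null lines is taken from the general protocol. The null lines were raised from single cells after CRISPR-Cas9 cutting, so each null genotype is a clone. A clone and its genotype cannot be told apart, and the labels do not say whether the WT cells are a clone. The cells without CHX also had a shorter pulse of light and biotin, so these conditions cannot be told apart either. Nothing in the labels says whether the 2 lysates of a group came from separate cultures, and p-values measure only the spread between these lysates.

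Ubiquinone is the lipid carrier that collects electrons in the inner membrane and passes them to complex III. Besides complexes I and II, several single-protein dehydrogenases feed it from other pathways. GPD2 oxidises glycerol 3-phosphate on the outer face of the inner membrane and closes the glycerol phosphate shuttle, which carries reducing equivalents from cytosolic NADH. DHODH makes orotate, the step of pyrimidine synthesis that takes place in mitochondria. ETFDH takes electrons from the electron transfer flavoprotein, which collects them from the acyl-CoA dehydrogenases of fatty acid and amino acid oxidation, and SQOR oxidises hydrogen sulfide. GPD2 and DHODH are held by membrane segments and ETFDH and SQOR lie on the matrix side of the membrane, and like most mitochondrial proteins all 4 are made on cytosolic ribosomes and imported.

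Positions are on GRCh38, to which the reads were aligned, and come from GENCODE 44, a later annotation than that of the files. GPD2 (ENSG00000115159) lies on chromosome 2, 156435290 to 156613735, plus strand, with 17 exons and a protein of 727 aa in its canonical transcript. DHODH (ENSG00000102967) lies on chromosome 16, 72008588 to 72027664, plus strand, with 9 exons and 395 aa. ETFDH (ENSG00000171503) lies on chromosome 4, 158671968 to 158710742, plus strand, with 13 exons and 617 aa. SQOR (ENSG00000137767) lies on chromosome 15, 45631148 to 45691281, plus strand, with 10 exons and 450 aa.

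What the footprint files could measure differed among the 4 genes. Positions of the coding sequence (CDS) that were unique and not shared with other annotated regions came to 1142 nt for GPD2, equal to 52.4% of the length of its canonical CDS, and 878 nt for DHODH, 74.1%. For ETFDH only 162 nt, 8.75%, counted as CDS, and all 12 libraries held 0 CDS footprints, so ETFDH is described from the footprints over all its exons (19430 positions). SQOR shares its entry in the footprint files with an overlapping gene on the same strand, ENSG00000260170, and held only 16 to 49 CDS footprints in a total input, below the minimum of 64 used in the study. SQOR also fell below a mean of 64 counts in RNA-seq (52.8 over the 12 libraries with CHX), so it entered no test. GPD2, DHODH and ETFDH passed these filters through their total inputs in footprints and through the mean of all libraries in RNA-seq.

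Footprint libraries held from 1.03e+06 to 1.95e+07 CDS footprints, the OMM pulldowns being the shallowest, and RNA-seq libraries from 3.83e+07 to 1.01e+08 counts. In total inputs, AKAP1 transcripts were at 20.3 to 32.1 CPM (counts scaled to the library total) in AKAP1 null cells and 86.3 to 142 CPM in the others, and LARP4 at 73.96 to 79.3 CPM in LARP4 null cells and 211 to 247 CPM in the others. Markers of this line were present in every total input (VIM at least 442 CPM, NEFL at least 67.7 CPM, NEFM at least 25.4 CPM). Of 7 markers of other cell types, COL1A2 and HBB were at 0 in every total input, PTPRC, ALB and PECAM1 did not exceed 0.157 CPM, and COL1A1 lay between 7.16 and 23.1 CPM. CDH1, an epithelial cadherin, was at 11.0 CPM in the total input of WT replicate 1 and 1.02 CPM in that of WT replicate 2, with the others from 5.66 to 9.55 CPM, so the WT lysates differed, and differences in enrichment from WT are given below over both of them. The part of this in those differences was not tested. The data folders named in the file headers put ER replicate 2 and OMM replicate 2 together, and put the pulldown and the total input of cytosol replicate 1 in different folders.

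Per listed gene length, GPD2 had the highest transcript level of the 4 genes. Over the 7 RNA-seq total inputs it ranged from 4.80 to 8.02 FPKM, computed here from counts and listed gene lengths, with a median of 6.24. DHODH ranged from 2.18 to 3.01 FPKM and ETFDH from 1.62 to 2.63 FPKM, and these ranges overlapped. The listed length of ETFDH, 23865 nt, is far longer than its CDS of 1851 nt and lowers its FPKM. Its place below GPD2 therefore depends on that length. In CPM, which is not scaled by length, ETFDH was above GPD2 in WT total inputs (48.6 and 38.7 against 44.7 and 34.4). The same held in AKAP1 null cells and without CHX, while in LARP4 null cells ETFDH was below GPD2 (42.3 and 51.8 against 49.5 and 54.1). SQOR was lowest, from 0.0962 to 0.399 FPKM, with no overlap with the others. In footprints the order of the upper pair was not the same, with DHODH at 6.31 to 8.997 RPKM in the CDS and GPD2 at 3.51 to 7.05 RPKM over the 6 total inputs, ranges that overlapped, and SQOR at 0.761 to 1.37 RPKM. These RPKM are the deposited values and cover only the unmasked part of each CDS.

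The OMM libraries ask which transcripts are read by ribosomes next to mitochondria. GPD2 and ETFDH were among the most enriched genes at the OMM, while DHODH was only slightly enriched and SQOR had too few footprints to tell. GPD2 rose from 5.84 to 32.5 RPKM between total input and pulldown in replicate 1 and from 5.85 to 45.3 RPKM in replicate 2. Its log2 enrichment, the log2 ratio of pulldown to total input after scaling by library totals, was 2.51 and 2.96, with counting errors (SE) of 0.23 and 0.18. ETFDH rose from 0.834 to 6.89 RPKM over all exons in replicate 1 and from 0.727 to 7.92 RPKM in replicate 2. That corresponds to log2 enrichment of 3.08 and 3.44, with counting errors of 0.14 and 0.12. For both genes both pulldowns lay far above both total inputs.

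In a quasi-likelihood fit of all 12 footprint libraries with edgeR, with a term for each lysate and p-values adjusted by the Benjamini-Hochberg method over all genes tested, GPD2 was enriched 6.75-fold at the OMM (log2 2.76, SE 0.20, adjusted p=3.2e-09). It stood at place 13 of 6728 genes. Over all exons ETFDH was enriched 9.66-fold (log2 3.27, SE 0.14, adjusted p=4.0e-12) and stood at place 10 of 8431 genes, and GPD2 on the same all-exon scale had a log2 of 2.49 (SE 0.15, adjusted p=4.4e-10), place 39. Of all genes tested, 17.0% were called higher and 46.0% lower in the CDS, and 16.5% and 49.0% over all exons. Library totals as the scale left the median of all genes at −0.38 at the OMM and −0.68 at the ER in the CDS, against −0.06 and −0.03 with TMM. Relative to the median of all genes, GPD2 was at 3.13 in the CDS and ETFDH at 3.65 over all exons.

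DHODH, with the shortest protein of the family, behaved differently at the OMM. It went from 7.51 to 12.2 RPKM in replicate 1 and from 6.95 to 10.3 RPKM in replicate 2, a log2 enrichment of 0.73 and 0.58. These rest on 24 and 50 CDS footprints in the pulldowns, with counting errors of 0.34 and 0.26. The fit gave a log2 of 0.64 (SE 0.26, adjusted p=0.0378), and over all exons 0.41 (SE 0.21, adjusted p=0.0998), so DHODH was called higher in the CDS but not over all exons. It also lost the call without the term for lysates (adjusted p=0.119) and when either lysate was left out (0.175 without replicate 1 and 0.175 without replicate 2). Relative to the median of all genes its CDS value was 1.01.

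SQOR had 21 and 23 CDS footprints in the OMM total inputs and 2 and 6 in the pulldowns. Its log2 ratios, −1.08 and −0.82, have counting errors of 1.07 and 0.66, so no enrichment or depletion was detectable at this depth.

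**Figure D1:**
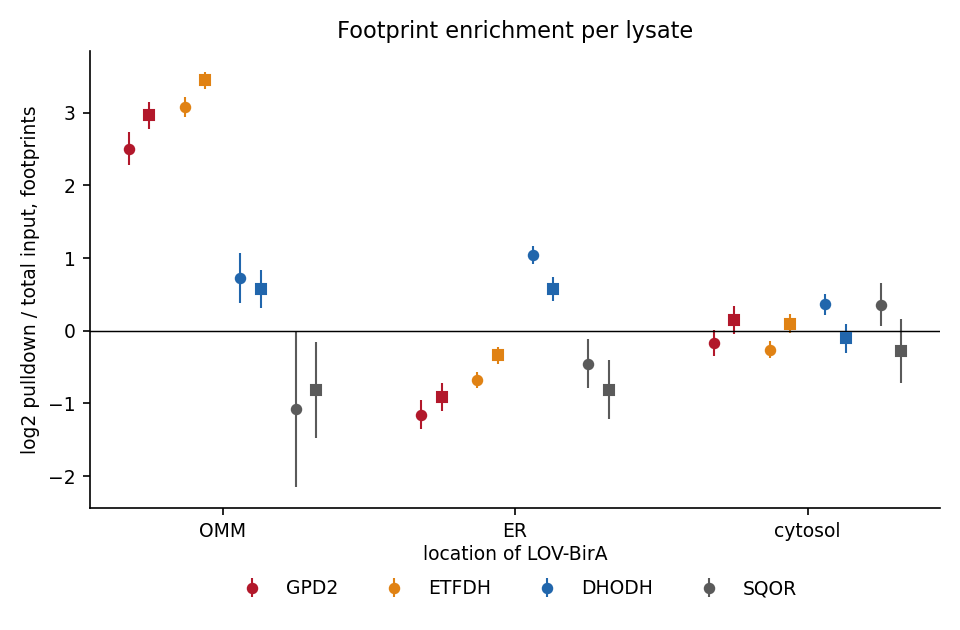
Log2 ratio of footprints in pulldown to total input (y axis) at each location of LOV-BirA (x axis), with a circle for replicate 1 and a square for replicate 2, error bars giving counting error (SE), in the CDS for GPD2, DHODH and SQOR and over all exons for ETFDH. GPD2 and ETFDH lie between 2.51 and 3.44 at the OMM and below 0 at the ER, while both DHODH lysates lie above 0 at both membranes.

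Among 242 mitochondrial genes encoding proteins over 400 aa that were tested in the CDS, the median log2 enrichment at the OMM was 0.29 and 10 lay above GPD2. Over all exons, 9 of 305 such genes lay above ETFDH and 33 above GPD2, around a median of 0.47. DHODH, at 395 aa just under that length, had a value of 0.41 on the same scale, beside a median of 0.36 for all 827 mitochondrial genes tested. Counts called higher were 325 of 689 mitochondrial genes in the CDS, so a call at the OMM was itself common among mitochondrial genes.

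The ER libraries show whether the same transcripts are read at another membrane. The 3 measured genes split again, with DHODH on the enriched side and GPD2 and ETFDH below 0. In the CDS GPD2 stood at place 5822 of 7381 genes, and over all exons GPD2 and ETFDH stood at places 4770 and 3563 of 8997. DHODH rose from 6.49 to 17.2 RPKM in replicate 1 and from 8.997 to 15.4 RPKM in replicate 2, a log2 enrichment of 1.04 and 0.58 (counting errors 0.12 and 0.16). In the fit its log2 was 0.82 (SE 0.17, adjusted p=2.4e-04), 1.51 above the median of all genes, and over all exons 1.17 (SE 0.14, adjusted p=5.1e-07). The share of all genes called higher at the ER was 19.8% in the CDS and 20.9% over all exons. Of 733 mitochondrial genes tested at the ER, 57 lay above DHODH and 102 were called higher. Leaving out ER replicate 1 lowered DHODH to 0.57 and ended the call (adjusted p=0.0764).

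GPD2 fell from 3.51 to 2.04 RPKM at the ER in replicate 1 and from 7.05 to 4.31 RPKM in replicate 2, a log2 of −1.15 and −0.91. The fit gave −1.03 (SE 0.19, adjusted p=7.9e-05), which is −0.35 relative to the median of all genes, and 72.0% of genes were called lower. With TMM its value was −0.39 (adjusted p=0.0961) and it was not called. Over all exons ETFDH had −0.68 and −0.34 in its lysates and −0.51 in the fit (SE 0.13, adjusted p=0.00168), which is 0.14 above the median of all genes, and with TMM it was at 0.10 (adjusted p=0.55) with the direction turned. Without ER replicate 1 the ETFDH call was lost (−0.34, adjusted p=0.114). SQOR went from 34 to 38 and from 25 to 26 CDS footprints, a log2 of −0.45 and −0.81 with counting errors of 0.34 and 0.40.

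Free LOV-BirA in the cytosol serves as the background of the pulldown itself, and none of the 3 genes was called there. GPD2 had a log2 of −0.16 and 0.15 in its lysates (fit −0.01, adjusted p=0.979), DHODH 0.36 and −0.10 (fit 0.16, adjusted p=0.666), and ETFDH over all exons −0.26 and 0.10 (fit −0.09, adjusted p=0.722). In each case the lysates lay on either side of 0. Over all genes, 2.02% were called higher and 5.96% lower in the CDS, and 3.58% and 6.84% over all exons. SQOR had 49 and 49 CDS footprints in replicate 1 and 16 and 32 in replicate 2, a log2 of 0.36 and −0.28.

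Differences between locations were tested within the same fit. GPD2 was 13.8-fold more enriched at the OMM than at the ER (log2 3.79, SE 0.28, adjusted p=2.3e-09), place 7 of 6675 genes, and 6.81-fold more than in the cytosol (log2 2.77, SE 0.27, adjusted p=3.8e-07). ETFDH over all exons differed by 3.78 between OMM and ER (SE 0.20, adjusted p=4.7e-11) and by 3.36 between OMM and cytosol (SE 0.20, adjusted p=6.2e-10). Of all genes, 31.1% were called higher and 18.6% lower at the OMM than at the ER in the CDS, and 30.2% and 20.9% over all exons. For OMM against cytosol the shares were 16.6% higher and 39.7% lower in the CDS, and 15.9% and 42.0% over all exons. In replicate 2, where OMM and ER libraries share a data folder, the log2 enrichment was higher at the OMM by 3.87 for GPD2 and, over all exons, by 3.78 for ETFDH.

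DHODH showed no such gap. In the CDS it differed by −0.19 between OMM and ER (95% interval −0.83 to 0.46, adjusted p=0.641), and by 0.48 between OMM and cytosol (−0.19 to 1.14, adjusted p=0.206). Over all exons its OMM value was lower than its ER value (log2 −0.77, SE 0.25, adjusted p=0.0168), with 20.9% of genes called lower. A comparison of ER with cytosol was added after the data had been seen. It gave 0.66 for DHODH (SE 0.25, adjusted p=0.023, 19.6% of genes called higher), −1.02 for GPD2 (SE 0.27, adjusted p=0.00219, 62.6% called lower), and −0.42 for ETFDH over all exons (SE 0.19, adjusted p=0.0532). The GPD2 call was lost with TMM (−0.37, adjusted p=0.255), and the DHODH call without ER replicate 1 (0.41, adjusted p=0.297) and without cytosol replicate 2 (0.47, adjusted p=0.0889). Both were lost without the term for lysates (adjusted p=0.209 for GPD2 and 0.159 for DHODH). ETFDH was at −0.59 without ER replicate 2 and at −0.61 without cytosol replicate 1, close to the median of all genes in each setting, −0.62. In the fit of all libraries the median of all genes was −0.66 in the CDS and −0.61 over all exons. Over all exons 63.9% of genes were called lower.

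**Figure D2:**
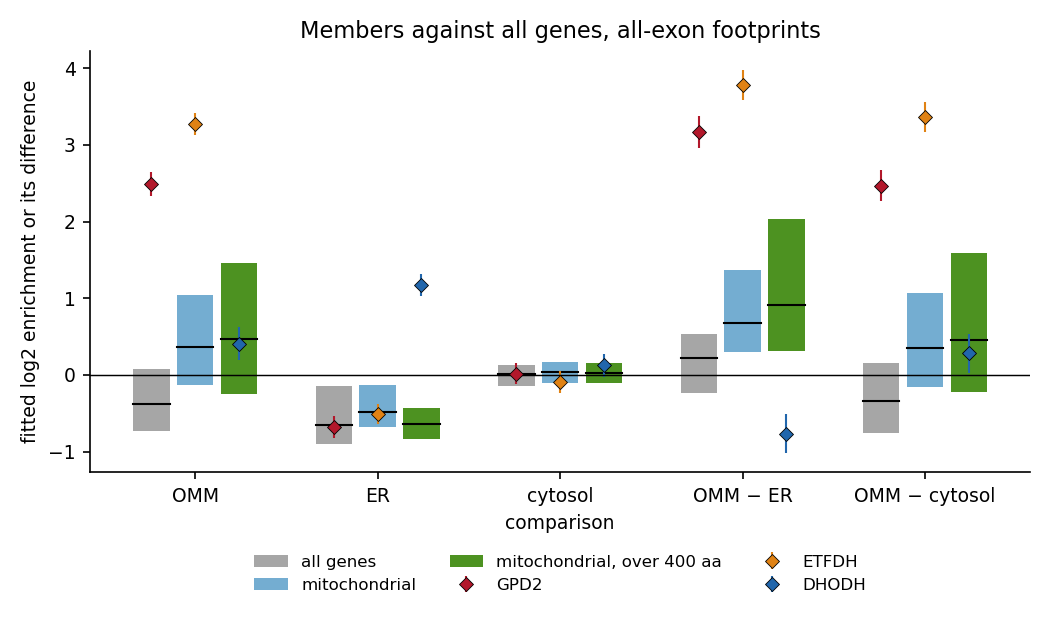
Fitted log2 enrichment, or difference of enrichment, of all-exon footprints (y axis) for GPD2, ETFDH and DHODH (diamonds, error bars SE, placed side by side within each comparison) over bars from the lower to the upper quartile, with a line at the median, for all genes, mitochondrial genes and mitochondrial genes over 400 aa. ETFDH and GPD2 lie above the upper quartile of each set in the comparisons of the OMM, and DHODH lies above all 3 at the ER.

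The footprints of GPD2 and ETFDH also differed in where on the transcript they lay. A 5′UTR footprint comes from a ribosome upstream of the main CDS, as in translation of short upstream reading frames. In the OMM total inputs, 12.5% of the exonic footprints of GPD2 lay in its 5′UTR in replicate 1 and 10.5% in replicate 2 (14 of 112 and 16 of 152, 95% Clopper-Pearson intervals 7.005% to 20.1% and 6.14% to 16.5%). In the OMM pulldowns the shares were 1.69% and 2.90% (2 of 118 and 12 of 414, intervals 0.206% to 5.99% and 1.51% to 5.01%). ETFDH went from 16.9% to 2.66% in replicate 1 and from 9.47% to 2.59% in replicate 2. Its upper bounds in the pulldowns, 5.17% and 3.89%, lie below its lower bounds in the total inputs, 11.7% and 5.51%. The share over all genes went from 6.08% to 4.61% and from 5.54% to 3.96% in the same libraries.

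In the other pulldowns the shares stayed higher, from 7.98% to 10.9% for GPD2 and from 6.86% to 12.1% for ETFDH at the ER and in the cytosol. There, too, ETFDH had a lower share in each pulldown than in its total input, and the share over all genes was also lower in each pulldown. GPD2 did so except at ER replicate 2, where the share was 4.57% in the total input and 7.98% in the pulldown. Set against library totals, the log2 ratio of 5′UTR footprints at the OMM was −0.49 and 0.70 for GPD2 (counting errors 1.09 and 0.55) and 0.41 and 1.57 for ETFDH (0.57 and 0.47), each below the gene's all-exon value of that lysate. DHODH had between 0 and 9 footprints in its 5′UTR in a library. These shares are descriptions with no test, and their intervals cover counting error only. Their level depends on which positions of a gene could be assigned to a region. ETFDH had no footprints assigned to its CDS in any library, so the level of its share is not comparable with that over all genes.

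**Figure D3:**
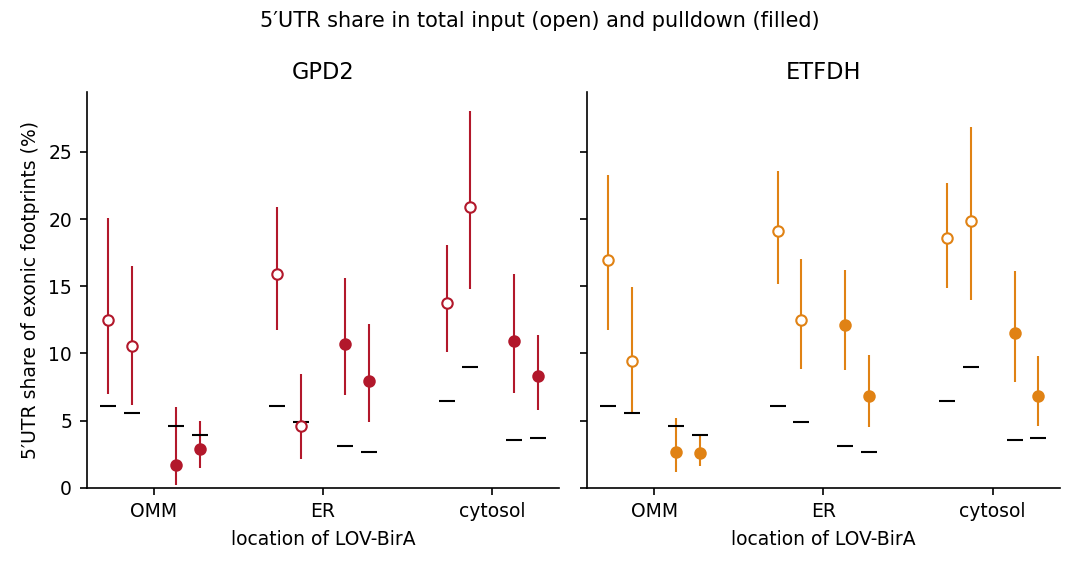
Share of a gene's exonic footprints in its 5′UTR (y axis, percent) for GPD2 and ETFDH at each location of LOV-BirA (x axis), with open circles for total inputs, filled circles for pulldowns, 95% Clopper-Pearson intervals, and dashes for the share over all genes in the same library. The OMM pulldowns, at 1.69% to 2.90%, are the lowest for both genes.

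For RNA-seq the mRNA was left unbroken during the pulldown, so this readout counts transcripts and not ribosome positions. In WT cells ETFDH was enriched and GPD2 and DHODH were near the level of the total input. ETFDH stood at 48.6 CPM in the total input and 147 CPM in the pulldown of replicate 1, and at 38.7 and 148 CPM in replicate 2, a log2 enrichment of 1.59 and 1.94. GPD2 stood at 44.7 and 45.0 CPM in replicate 1 and at 34.4 and 47.8 CPM in replicate 2, a log2 of 0.01 and 0.47. DHODH had a log2 of 0.08 and 0.19. The median of all genes was −0.28 in WT cells. GPD2, near the top of footprints at the OMM, was thus at place 3345 of 13856 genes in this readout, and ETFDH at place 195.

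AKAP1 is a scaffold protein of the OMM that binds mRNA and protein kinase A. In AKAP1 null cells the enrichment of GPD2 and ETFDH was higher than in WT cells while their total levels were not. GPD2 went from 37.2 to 123 CPM in replicate 1 and from 36.5 to 172 CPM in replicate 2, a log2 enrichment of 1.72 and 2.24. Both values exceed both WT values, and the 4 differences between lysates of the genotypes ran from 1.25 to 2.23. The fitted difference of 1.74, 1.55 above the median of all genes, put GPD2 at place 6 of 13856, which is the value that helped to choose it. ETFDH went from 40.1 to 261 CPM and from 40.9 to 385 CPM, a log2 of 2.70 and 3.24, with differences from WT between 0.76 and 1.64. Its fitted difference of 1.20 was at place 103.

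DHODH differed least of the 3 measured genes, with a log2 of 0.41 and 0.31 in AKAP1 null cells and a fitted difference of 0.22, close to the median of all genes, 0.19. The median difference of 363 mitochondrial genes over 400 aa was 0.73, with 3 genes above GPD2, 79 above ETFDH and 295 above DHODH. SQOR, on 27 to 111 counts in these libraries, had a log2 of 0.91 and 1.63, and its differences from WT ran from −0.12 to 1.18. In total inputs the fitted differences between AKAP1 null and WT were −0.09 for GPD2, −0.10 for ETFDH and −0.36 for DHODH, with DHODH at 15.1 and 16.2 CPM in AKAP1 null cells and 20.8 and 19.7 CPM in WT cells.

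LARP4 is an RNA-binding protein that associates with poly(A) tails. In LARP4 null cells, as in WT cells, ETFDH was the most enriched of the 3 measured genes. In each of these genotypes DHODH lay above GPD2 in replicate 1 and below it in replicate 2. ETFDH went from 42.3 to 121 CPM in replicate 1 and from 51.8 to 139.5 CPM in replicate 2, a log2 of 1.52 and 1.43, and was enriched in the fit of the 12 libraries with CHX (log2 1.48, SE 0.14, adjusted p=1.6e-04, edgeR), where 22.8% of genes were called higher and 30.0% lower. GPD2 (0.13 and 0.40, fit 0.27, adjusted p=0.168) and DHODH (0.21 and 0.08, fit 0.15, adjusted p=0.24) were not called. Without LARP4 null replicate 1, GPD2 was called at a log2 of 0.40 (adjusted p=0.0194).

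Neither gene tested for a difference between LARP4 null and WT cells passed. It was 0.01 for DHODH (95% interval −0.31 to 0.33, adjusted p=0.968) and −0.29 for ETFDH (−0.74 to 0.15, adjusted p=0.395), with a median of 0.17 over all genes. Without WT replicate 1 the values were −0.05 and −0.46, and without WT replicate 2 they were 0.07 and −0.12. In this comparison edgeR called 0 of 13856 genes, 2270 had an unadjusted p below 0.05, and DESeq2 called 2 higher and 454 lower. GPD2 differed by 0.03, given without a test since the WT libraries also entered its choice. In total inputs LARP4 null cells differed from WT by −0.16 for DHODH (−0.48 to 0.16, adjusted p=0.99) and 0.13 for ETFDH (−0.22 to 0.48, adjusted p=0.99), and by 0.41 for GPD2 with no test. Of 13977 genes, 0.00715% were called higher and 0.00715% lower there. SQOR had a log2 enrichment of 0.57 and −0.09 in LARP4 null cells, with counting errors of 0.30 and 0.26.

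The genotype of the cells without CHX is not given in the labels, so it too may differ from that of the WT cells with the control gRNA. Without CHX, GPD2 and ETFDH exchanged their order. GPD2 was at 57.5 CPM in the total input and 131 CPM in the pulldown, a log2 of 1.19, above both WT values with CHX by 0.72 and 1.18. ETFDH was at 62.9 and 110 CPM, a log2 of 0.80, below both WT values (differences of −1.13 and −0.79). DHODH, at 0.18, lay between its WT values. SQOR was at −0.29 (counting error 0.23), beside 0.46 and 1.04 in WT cells, values with counting errors of 0.31 and 0.47. With 1 lysate these differences have no replicate check, and a shift shared by all genes of this pair was not measured.

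**Figure D4:**
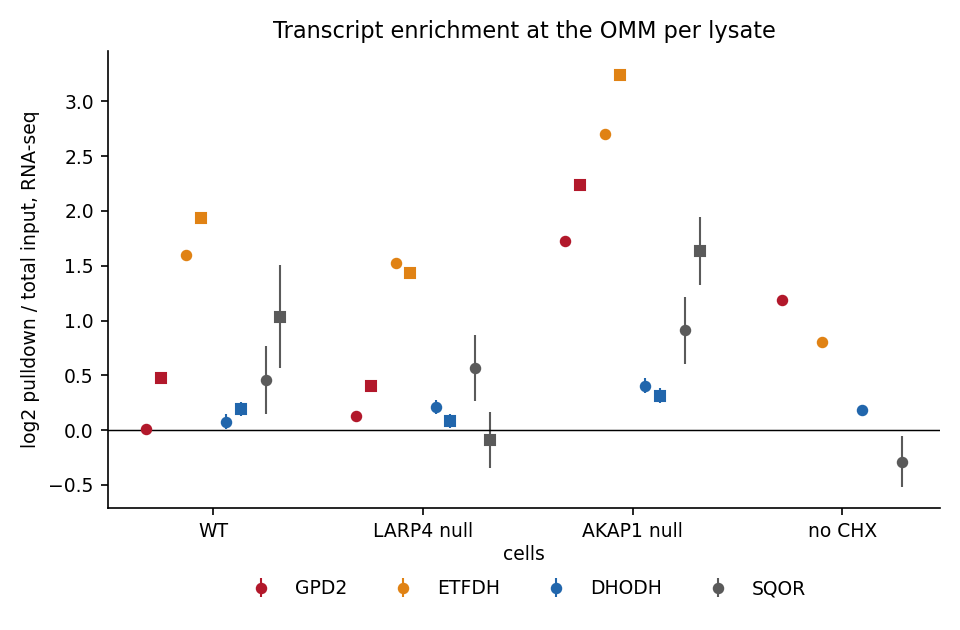
Log2 ratio of transcripts in pulldown to total input at the OMM (y axis) in WT, LARP4 null and AKAP1 null cells and in cells without CHX (x axis), with a circle for replicate 1 and a square for replicate 2 and error bars giving counting error (SE). GPD2 lies at 0.01 to 0.47 in WT and LARP4 null cells and at 1.72 to 2.24 in AKAP1 null cells.

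**Figure D5:**
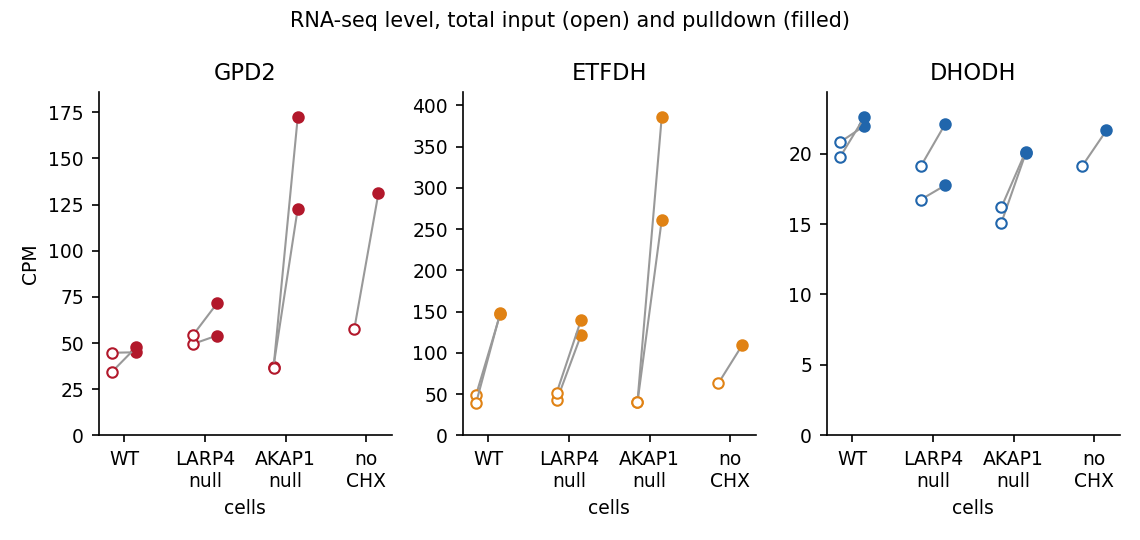
CPM in RNA-seq (y axis, from 0, with its own range for each gene) in total input (open) and pulldown (filled), joined for each lysate, by cells (x axis). Pulldown levels of ETFDH are highest in AKAP1 null cells, at 261 and 385 CPM, while those of GPD2, at 123 and 172 CPM there, lie on either side of the 131 CPM without CHX.

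ETFDH shares 1427 exonic bases with PPID and 259 with C4orf46, both on the opposite strand, and 219 with a U3 snoRNA on its own strand, and whether RNA-seq counting used strand is not given in the sources used here. PPID, a cytosolic peptidyl-prolyl isomerase, had a log2 of 0.21 in LARP4 null cells (SE 0.09, adjusted p=0.082) and −0.23 in OMM footprints over all exons (adjusted p=0.122), and C4orf46 had −0.64 in LARP4 null cells. The part of these overlaps in the values of ETFDH was not tested. SQOR shares 881 bases with ENSG00000260170 on its own strand, and reads in the shared part may be missing from its RNA-seq counts, so its level is uncertain.

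Likeness of pattern was measured as Pearson's r over the 13 log2 ratios of pulldown to total input (6 footprint and 7 RNA-seq lysates), which share libraries and depth, among genes with at least 64 counts in every total input. Of 6424 other genes, those most like GPD2 were DHTKD1 (r=0.98), MARS2 (0.979) and NRIP1 (0.977), of which DHTKD1 and MARS2 encode mitochondrial enzymes and NRIP1 a nuclear corepressor. Those most like DHODH were MRS2 (0.905), a magnesium channel of the inner membrane, TM2D3 (0.903) and RCE1 (0.876), a protease of the ER membrane. For ETFDH, on all-exon footprints and 8203 genes, they were RSPRY1 (0.981), PCCA (0.975) and HADHA (0.973), the latter pair being mitochondrial enzymes of propionate and fatty acid breakdown. GPD2 was at place 78 by likeness to ETFDH (r=0.893), while DHODH had r=0.03 with GPD2 and −0.33 with ETFDH.

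Few of the other enzymes that reduce ubiquinone could be measured in footprints. Of 8 listed, 2 could be tested in the CDS at the OMM, around a median of 0.17. SDHB, the iron-sulfur subunit of complex II, was called higher (log2 0.36, SE 0.10, adjusted p=0.0035), and SDHC was at −0.02 (adjusted p=0.952), where 17.0% of all genes were higher and 46.0% lower. Over all exons CHDH, choline dehydrogenase, was also higher (1.13, SE 0.24, adjusted p=5.1e-04), making 2 of 3 tested, against 16.5% of all genes higher and 49.0% lower. Of mitochondrial genes, 325 of 689 were called higher in the CDS and 425 of 827 over all exons, so such calls were common among them. At the ER 0 of 3 were called higher and 3 lower in the CDS, where 72.0% of all genes were lower. In LARP4 null cells 5 of 7 transcripts were called higher and 0 lower, around a median of 0.42. Of all genes, 22.8% were higher and 30.0% lower, around a median of −0.06. Of 1020 mitochondrial genes, 533 were higher and 148 lower, around a median of 0.34, so higher calls were common among mitochondrial genes there. PRODH, proline dehydrogenase, was at 0.88 (adjusted p=0.00946) and SDHA, the flavoprotein of complex II, at 0.87 (adjusted p=2.5e-04), both above the 0.27 of GPD2 in the same cells.

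Of 14 genes of ubiquinone synthesis, 11 could be tested in the CDS, with 3 called higher and 1 lower at the OMM around a median of 0.01. All genes had a median of −0.38, with 17.0% called higher and 46.0% lower. Mitochondrial genes had a median of 0.32, with 325 of 689 called higher, so the list did not stand above other mitochondrial genes. COQ3 (1.07, SE 0.12, adjusted p=1.2e-06) and COQ5 (0.66, SE 0.18, adjusted p=0.00358), both methyltransferases of the ubiquinone ring, and PDSS2 (0.47, SE 0.17, adjusted p=0.0219), a subunit of the enzyme that makes the isoprenoid tail, were higher. COQ10B, a ubiquinone-binding protein, was lower (−0.79, SE 0.19, adjusted p=0.00154). Over all exons 5 of 12 were called higher and 1 lower, around a median of 0.20, against 16.5% and 49.0% of all genes. Of 827 mitochondrial genes tested there, 425 were called higher, around a median of 0.36. COQ8B, an atypical kinase of ubiquinone synthesis, had the highest value of the list (2.55, SE 0.14, adjusted p=1.0e-10), slightly above the 2.49 of GPD2 on that scale. At the ER 1 was called higher and 7 lower in the CDS, around a median of −0.44 against −0.68 for all genes, of which 19.8% were higher and 72.0% lower. In the cytosol 1 was higher and 0 lower, against 2.02% and 5.96%. In LARP4 null cells 4 of 13 were called higher and 1 lower, against 22.8% and 30.0% of all genes. Of 1020 mitochondrial genes, 533 were called higher and 148 lower there.

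Of 10 enzymes that supply or follow the family, 6 could be tested in the CDS at the OMM, with 1 called higher and 2 lower around a median of −0.01, against 17.0% and 46.0% of all genes. SUOX, the sulfite oxidase of the intermembrane space, was higher (1.04, SE 0.21, adjusted p=3.8e-04). CAD, the cytosolic enzyme of the early steps of pyrimidine synthesis (−1.02, SE 0.10, adjusted p=2.0e-07), and GPD1L, a cytosolic glycerol 3-phosphate dehydrogenase (−0.64, SE 0.20, adjusted p=0.00863), were lower. CAD and DHODH act in the same pathway, in the cytosol and in mitochondria. In the CDS they lay on different sides of 0 at the OMM. DHODH was not called over all exons (log2 0.41, adjusted p=0.0998, edgeR), and its CDS call was lost without the term for lysates. Over all exons 3 of 8 were called higher and 3 lower, against 16.5% and 49.0%, with ETHE1, the dioxygenase that follows SQOR in sulfide oxidation, at 2.03 (SE 0.14, adjusted p=3.0e-09). At the ER 0 were called higher and 6 lower in the CDS, where 72.0% of all genes were lower, and in the cytosol 1 was higher and 0 lower, against 2.02% and 5.96%. In LARP4 null cells 4 of 9 were called higher and 3 lower, against 22.8% and 30.0%. For these 3 lists the comparison of LARP4 null with WT cells called 0 genes in either direction, both in enrichment and in total input. Over all genes it called 0 of 13856 in enrichment, and 0.00715% higher and 0.00715% lower in total input. These counts therefore say nothing particular about the lists.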

How the data were processed

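For ribosome profiling, reads of rRNA and tRNA were removed with Bowtie and unique TopHat alignments to GRCh38 were retained, from which the authors deposited estimated counts per gene region (expected counts, fractional since each footprint is spread over its central positions), together with RPKM scaled to the reads on annotated transcripts. For RNA-seq the authors aligned reads with STAR and deposited counts per gene from featureCounts. The authors also deposited a column named FPKM, treated here as a score of unclear scale and not used. Values named RPKM are the deposited ones. Log2 ratios per lysate used counts over library totals (CDS, exon or gene counts) and in RNA-seq 0.5 counts were added. Log2 ratios of the deposited RPKM differ from them by −0.03 to 0.37 in the CDS, by lysate.

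Expected counts were rounded and tested with edgeR 4.0.16 (quasi-likelihood, two-sided) in R 4.3.3, with a term per lysate and a pulldown effect per location or genotype, the 12 libraries with CHX of each data type in a single fit. Scaling was by library totals, and by TMM where total inputs were compared with each other. Genes needed 64 footprints in each total input of the locations compared, or a mean of 64 counts. Calls have a Benjamini-Hochberg adjusted p below 0.05. Merged entries holding several genes counted toward totals only. Pulldown and total input of a lysate are paired by the study's methods, and their deviations between replicates correlated across genes (r from 0.584 to 0.875). CDS counts had been planned for all 4 genes, but ETFDH needed all-exon counts and SQOR passed no minimum. The fits were tested on simulated data, where recovery of changed genes at the OMM fell short of the bound first set, which was then lowered. Tables and figures used Python 3.11.15. DESeq2 1.42.0 was an alternative.

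The 4 genes, the lists and the tests were chosen with earlier results of these data known. Named genes are the 4 members, AKAP1 and LARP4, up to 4 genes per list called at the OMM with the largest change, and the 3 genes most like each member. SDHA, SDHC, CHDH, PRODH, COQ8B, ETHE1, PPID and C4orf46 were named after their values were seen. Mitochondrial genes are 1058 nuclear-encoded genes named in the study's mitochondrial gene sheets, used for membership only. Sequences are not used here.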

Additional observations from a re-analysis of the deposited data

Results flagged for a closer look

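Several differences between locations passed a test of the difference itself. GPD2 was more enriched at the OMM than at the ER by a log2 of 3.79 in the CDS and 3.17 over all exons, and than in the cytosol by 2.77 and 2.47. ETFDH, over all exons, was more enriched at the OMM than at the ER by 3.78 and than in the cytosol by 3.36. DHODH differed between OMM and ER by −0.77 over all exons, but was not called in the CDS. Between ER and cytosol, in a comparison added after the data had been seen, GPD2 differed by −1.02 in the CDS and −0.70 over all exons, and DHODH by 0.66 and 1.05. There the median of all genes was −0.66 in the CDS and −0.61 over all exons. Over all exons 20.7% of genes were called higher and 63.9% lower, and GPD2 was at −0.08 relative to the median, place 4855 of 8604. Both CDS calls of that comparison were lost under several alternatives. In each case the test was edgeR's, with p-values adjusted over all genes. Groups of 2 lysates are too small to look for a sample far from the others.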

How the results depend on the processing

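Of 226 values of GPD2, DHODH and ETFDH under alternatives, 203 kept their direction and their side of the threshold or had no call to lose, 17 lost the call, 4 gained it and 2 reversed. The reversed values are ETFDH at the ER over all exons, 0.10 with TMM and 0.063 with DESeq2, neither of them called. The other settings for ETFDH footprints were chosen after seeing the data. GPD2 at the OMM ran from 2.49 to 3.10 and ETFDH from 3.08 to 3.63, called throughout. At the OMM 2 genes tested in the CDS (GPD2 and DHODH) were called, but 1 over all exons, 1 without the replicate block (the term per lysate) and from 1 to 1 when a lysate was left out, DHODH being lost. At the ER 2 were called, but 1 with TMM, 1 with DESeq2, 1 without the replicate block and from 1 to 2 when a lysate was left out. For OMM against ER 1 was called, but 2 over all exons. For OMM against cytosol 1 was called and 0 without the replicate block, GPD2 then being at 2.69 (adjusted p=0.0524, edgeR). For ER against cytosol 2 were called, but 1 with TMM, 1 with DESeq2, 0 without the replicate block and from 1 to 2 when a lysate was left out. In LARP4 null cells 1 was called, and from 1 to 2 when a lysate was left out, GPD2 being gained. Without the replicate block ETFDH over all exons was also lost at the ER (−0.46, adjusted p=0.269). The replicate block changed no other call for these genes, and in total inputs, where replicate numbers are only a shared number, adding it kept the count at 0. The cause of these changes was not tested, but leaving out a lysate leaves a location with 1, assumed to vary like the others.

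Counts over all genes depend more on the setting. Calls at the OMM were 1142 higher and 3092 lower, and from 514 to 1737 and from 1010 to 4133 under alternatives. At the ER they were 1464 and 5317 (1312 to 2573 and 1563 to 6478), in the cytosol 145 and 427 (0 to 321 and 29 to 614), for OMM against ER 2074 and 1239 (507 to 2534 and 837 to 2009), for OMM against cytosol 1070 and 2569 (199 to 1585 and 55 to 3467) and for ER against cytosol 1333 and 4260 (1020 to 2353 and 1152 to 5497). In LARP4 null cells they were 3161 and 4151 (1576 to 4027 and 2091 to 5343), against WT 0 and 0 (up to 4521 and 1143, both without LARP4 null replicate 1), and in total inputs 1 and 1 (up to 170 and 66). Single lysates moved counts too: without OMM replicate 2 there were 1807 lower at the OMM, 1266 higher for OMM against ER and 1635 lower for OMM against cytosol, without ER replicate 1 there were 1291 higher for OMM against ER, and without cytosol replicate 1 or 2 there were 220 or 275 higher in the cytosol. TMM moved the share of calls that are higher from 26.97% to 51.4% at the OMM, from 21.6% to 53.5% at the ER, from 62.6% to 38.6% for OMM against ER, from 29.4% to 54.1% for OMM against cytosol and from 23.8% to 58.9% for ER against cytosol. Depth limits SQOR at every location and DHODH in the OMM pulldowns.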
